A study of Homo sapiens with 4 samples.

Results

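The genes of cholesterol and fatty acid synthesis were followed in A549, a human lung adenocarcinoma cell line, with normal and with reduced RBM10, an RNA-binding protein known for its part in splice site choice. The members were 27 named enzymes, regulators and a carrier of these pathways, and all 27 were among the 17041 genes of the expression table. Events in the splicing table, which covers 2166 genes, were listed for 5 of them. The groups were 2 libraries of RBM10 wild-type cells and 2 of RBM10 knockdown cells, whose batch label is the same. Per the labels, knockdown cells had taken up a lentiviral shRNA against RBM10 and were kept under puromycin (1 µg/mL) for 10 to 14 days to enrich a stable population. The labels do not say whether wild-type cells had a control construct or puromycin, so lower RBM10 cannot be told apart here from transduction and selection. Nothing says that the replicates were separate cultures, so the tests speak to the variation among these 4 libraries, which could be technical in origin.

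Cells build cholesterol from acetyl-CoA through mevalonate, then squalene, then a chain of sterol intermediates. Fatty acids come from the same precursor through acetyl-CoA carboxylase and fatty acid synthase, and are then lengthened by elongases and given double bonds by desaturases. Many genes of both branches are targets of the SREBP transcription factors, which SCAP and the INSIG proteins hold in the endoplasmic reticulum while sterols are plentiful. SREBP-1, from SREBF1, acts mainly on fatty acid genes, and SREBP-2, from SREBF2, mainly on sterol genes. SREBF1 is also a known target of the oxysterol receptors LXR, and has separate promoters for the forms SREBP-1a and SREBP-1c.

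Sequences are shown for the SREBF1 and ACACA exons whose junctions differed most, and for promoters of the 4 members with the largest log2 change among those that passed and held a searched motif. The SREBF1 exon (chr17:17823518-17823607, minus strand, hg38, GENCODE v29) has 90 bases and is an internal exon of the transcript SREBF1-202. In the transcript SREBF1-206 the same exon comes first, begins at 17823618, and holds the start codon, here in capitals. The ACACA exon (chr17:37210467-37210490, minus strand) has 24 bases, in capitals between 36 bases of each neighbouring exon of ACACA-237.
SREBF1 exon: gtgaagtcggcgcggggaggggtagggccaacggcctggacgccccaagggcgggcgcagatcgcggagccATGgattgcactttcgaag
ACACA exon: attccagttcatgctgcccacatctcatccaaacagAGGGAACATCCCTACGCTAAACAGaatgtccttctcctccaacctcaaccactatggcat

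Promoter windows of RefSeq (GRCh38.p14), from 250 bases before to 50 after a gene's start, were found for 24 of the 27 genes. Those 24 include STARD4, SC5D and ELOVL6, whose levels were too low to be tested for expression, unlike the tested genes they are set against. Both strands were searched for CCAAT (the NF-Y box), CACGTG (an E-box) and TCACNCCAC (a sterol regulatory element), of which none lies within another. CCAAT was present for 20 of these genes (83.3%), against 43.4% of 7824 tested genes with a window. Counted by window, it was in 72.7% of 33 member windows, against 34.6% of all 35116 windows. The E-box was present for 3 genes (INSIG1, LSS and SC5D, 12.5%), against 13.1% of tested genes. By window it was 12.1%, against 7.26%. The sterol element in this form was present for SREBF2 alone (4.17%), against 1.38% of tested genes, and by window 3.03%, against 1.13%. Other forms of this element, and bases outside the windows, were not searched. Of the 7 genes that changed in expression 5 held CCAAT, as did 15 of the 17 others with a window. The windows of SCD (chr10:100346983-100347282), FADS2 (chr11:61816154-61816453), TM7SF2 (chr11:65111622-65111921) and INSIG1 (chr7:155297628-155297927), all on the plus strand, are given with the matches in capitals.
SCD promoter: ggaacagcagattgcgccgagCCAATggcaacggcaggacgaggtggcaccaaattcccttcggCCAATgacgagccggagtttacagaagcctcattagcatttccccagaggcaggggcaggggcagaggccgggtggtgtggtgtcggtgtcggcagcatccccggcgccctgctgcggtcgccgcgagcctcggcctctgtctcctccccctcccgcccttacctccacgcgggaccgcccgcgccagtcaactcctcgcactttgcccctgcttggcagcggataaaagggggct
FADS2 promoter: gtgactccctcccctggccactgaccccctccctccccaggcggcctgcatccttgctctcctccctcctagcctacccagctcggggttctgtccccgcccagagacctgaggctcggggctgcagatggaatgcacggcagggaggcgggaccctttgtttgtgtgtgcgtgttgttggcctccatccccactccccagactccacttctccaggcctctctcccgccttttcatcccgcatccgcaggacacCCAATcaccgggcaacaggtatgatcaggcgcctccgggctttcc
TM7SF2 promoter: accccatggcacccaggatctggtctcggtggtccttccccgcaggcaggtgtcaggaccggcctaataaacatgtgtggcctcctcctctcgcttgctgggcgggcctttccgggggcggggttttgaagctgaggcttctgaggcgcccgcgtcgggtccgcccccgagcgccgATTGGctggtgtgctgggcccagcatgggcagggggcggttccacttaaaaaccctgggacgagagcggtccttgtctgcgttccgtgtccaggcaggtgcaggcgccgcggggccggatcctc
INSIG1 promoter: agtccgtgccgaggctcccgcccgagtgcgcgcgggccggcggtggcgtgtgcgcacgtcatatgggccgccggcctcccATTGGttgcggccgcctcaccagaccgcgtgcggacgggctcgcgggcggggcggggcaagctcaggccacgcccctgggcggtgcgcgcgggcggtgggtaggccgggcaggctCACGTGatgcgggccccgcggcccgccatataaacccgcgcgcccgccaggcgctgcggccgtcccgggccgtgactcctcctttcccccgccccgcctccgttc

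RBM10 itself stood at 35.5 and 40.8 RPKM in wild type, against 11.6 and 10.9 RPKM after knockdown (log2 change -1.67, SE 0.11, limma adjusted p = 1.01e-05), which is the direction of the labels. RPKM divides reads by gene length and by depth, but the unit is inferred and the length used is unknown, so values are compared between libraries and not between genes. Depth was 84.5% to 100% of that of the deepest library. All 7 epithelial markers chosen for A549 were in the table, with a summed level of 4070 to 4305 RPKM per library. Within that sum the keratin genes KRT8, KRT18 and KRT19 and the adhesion gene EPCAM rose (log2 changes 0.96, 0.94, 1.24 and 0.90), AKR1B10, an aldo-keto reductase, fell (-0.99), and CDH1 and AKR1C1 did not pass in limma. The part of these changes in the results that follow was not tested. Of 13 markers of blood, vessel, stromal, liver and fat cells 4 were in the table, with sums of 0.0575 and 0.0699 RPKM in wild type and 0.216 and 0.265 RPKM in knockdown, and the other 9 were not analysed here. In bulk RNA, fewer cells with a transcript and less of it per cell cannot be told apart.

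After knockdown, 7 of the 24 members that could be tested rose and 0 fell. Those that rose were the desaturases SCD, FADS1 and FADS2, the sterol enzymes TM7SF2 and MSMO1, and the regulators SREBF1 and INSIG1. No enzyme of the mevalonate pathway passed. The test was limma on log2(RPKM + 1) over the 10182 genes whose mean reached 1 RPKM in at least 1 group, and a gene passed at a Benjamini-Hochberg adjusted p under 0.05. The same test called 15.3% of all tested genes higher and 7.03% lower. Of the members, 29.2% were higher. Without adjustment, 10 members were higher and 0 lower at p under 0.05, against 22% and 13.6% of all tested genes. The median log2 change was 0.17 over the members tested and 0.023 over all tested genes. Without knockdown replicate 1, 4 of 24 members were called higher (16.7%), against 13.4% of all genes tested. Without the filter on low levels it was 2 of 27 (7.41%), against 7.18%, so the share of members was then close to that of all genes.

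**Figure D1:**
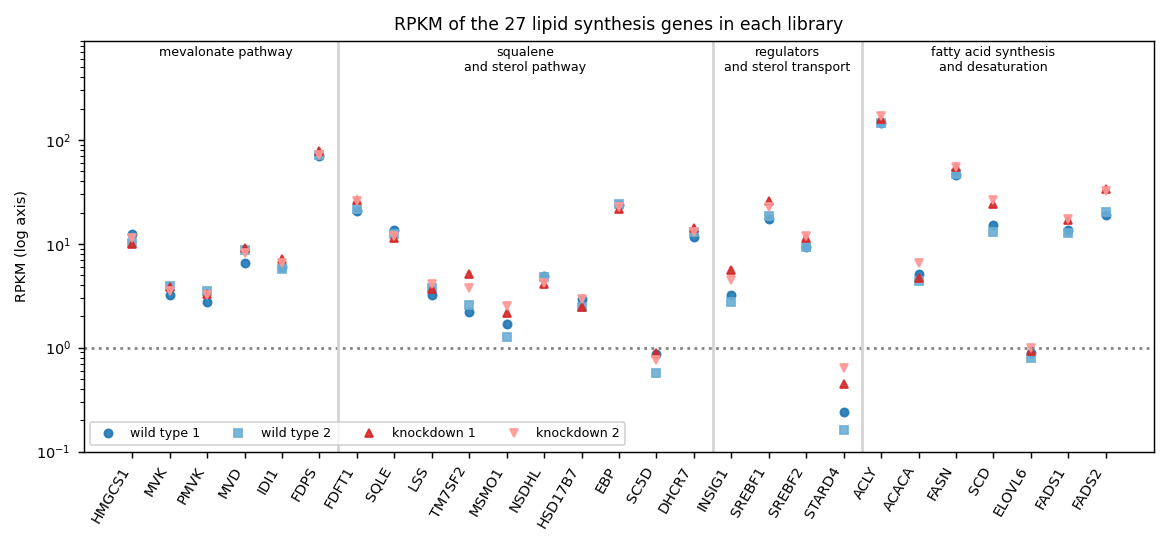
RPKM (log axis) of the 27 genes in the 2 wild-type (blue) and 2 knockdown (red) libraries, by role, with a dotted line at 1 RPKM. Red points lie above blue ones for SCD, FADS1, FADS2, SREBF1 and INSIG1, and 5 of the 6 mevalonate pathway genes overlap.

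SCD and FADS2, both desaturases, had the largest log2 changes of RPKM + 1 among the 24 tested members. The ranking depends on the added 1, which weighs on low genes. By ratio of mean RPKM, TM7SF2 (1.85) stood above SCD (1.80) and INSIG1 (1.69) just above FADS2 (1.68). With 0.1 added in place of 1, TM7SF2 and SCD had log2 changes of 0.85 and 0.84. SCD, which makes monounsaturated fatty acids, stood at 15.3 and 13.1 RPKM in wild type, against 24.4 and 26.7 RPKM after knockdown. Both knockdown libraries were above both others, with a mean 1.80 times that of wild type (log2 change 0.81, SE 0.11, limma adjusted p = 0.000883). FADS2, the delta-6 desaturase at the start of polyunsaturated fatty acid synthesis, stood at 18.8 and 20.1 RPKM in wild type, against 33.3 and 32.2 RPKM after knockdown. Its groups lay far apart (log2 change 0.72, SE 0.099, limma adjusted p = 0.000797). SCD and FADS2 passed in all 11 alternative settings tried.

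FADS1, the delta-5 desaturase, overlaps FADS2 on the opposite strand of chromosome 11 and stood at 13.7 and 12.7 RPKM in wild type, against 16.8 and 17.2 RPKM after knockdown. Its knockdown libraries were again the higher ones (log2 change 0.34, SE 0.10, limma adjusted p = 0.0378). The call ended without wild-type replicate 2 (0.30), knockdown replicate 1 (0.36) or knockdown replicate 2 (0.33). It ended also with the replicate block, without the filter, and with TMM-like factors (adjusted p = 0.0551 in limma). How the authors used strand is unknown here, so reads in the overlap could count for either gene, and FADS2 also overlaps FEN1 on its own strand.

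The earlier steps of fatty acid synthesis did not pass. FASN, fatty acid synthase, stood at 46.4 and 46.8 RPKM in wild type, against 54.3 and 54.5 RPKM after knockdown. The groups did not overlap (log2 change 0.22, SE 0.092, limma adjusted p = 0.120), and FASN passed under cyclic loess normalization (limma adjusted p = 0.0440). ACLY, which makes acetyl-CoA from citrate, stood at 147 and 146 RPKM in wild type, against 158 and 169 RPKM after knockdown (log2 change 0.16, SE 0.090, limma adjusted p = 0.247). Its knockdown libraries were the higher ones too.

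ACACA, acetyl-CoA carboxylase, stood at 5.15 and 4.35 RPKM in wild type, against 4.64 and 6.48 RPKM after knockdown (log2 change 0.18, SE 0.15, limma adjusted p = 0.429). The groups overlapped, and the log2 change was -0.024 without knockdown replicate 2. ELOVL6, an elongase of palmitate, stood at 0.885 and 0.791 RPKM in wild type, against 0.923 and 0.990 RPKM after knockdown. It was under the filter and was not tested.

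Among the regulators, SREBF1 stood at 17.4 and 18.4 RPKM in wild type, against 25.7 and 22.8 RPKM after knockdown. Both knockdown libraries were higher (log2 change 0.42, SE 0.11, limma adjusted p = 0.0195). The call ended without knockdown replicate 1 (0.34), with the replicate block and without the filter. SREBF1 overlaps RAI1 on the opposite strand. INSIG1, which retains SREBP in the endoplasmic reticulum and is itself a known SREBP target, stood at 3.21 and 2.75 RPKM in wild type, against 5.61 and 4.48 RPKM after knockdown.

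Both knockdown libraries of INSIG1 were higher as well (log2 change 0.60, SE 0.13, limma adjusted p = 0.0102). Its call ended without knockdown replicate 1 (0.46) and without the filter. SREBF2 stood at 9.37 and 9.41 RPKM in wild type, against 11.4 and 12.004 RPKM after knockdown. Its groups did not overlap, and it missed the threshold (log2 change 0.29, SE 0.10, limma adjusted p = 0.0733).

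STARD4, a cytosolic sterol carrier, stood at 0.238 and 0.163 RPKM in wild type, against 0.443 and 0.631 RPKM after knockdown. The knockdown libraries were the higher ones, but the gene was under the filter and was not tested. Its values rest on 47 to 174 whole units per library, an approximate lower limit on its reads, against 2487 to 4834 for SCD and 355 to 611 for INSIG1. STARD4 overlaps STARD4-AS1 on the opposite strand.

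From squalene to cholesterol, 2 of 9 tested enzymes (22.2%) rose and 0 fell, against 15.3% and 7.03% of all tested genes. TM7SF2, a sterol C14 reductase, stood at 2.22 and 2.58 RPKM in wild type, against 5.09 and 3.77 RPKM after knockdown, 1.85 times as much on average. Both knockdown libraries were higher, though apart from each other (log2 change 0.67, SE 0.14, limma adjusted p = 0.00838). It passed in 10 of 11 alternative settings, all but the one without the filter. TM7SF2 overlaps VPS51 on its own strand, so these genes may share reads.

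MSMO1, which oxidises the C4 methyl groups of sterols, stood at 1.69 and 1.27 RPKM in wild type, against 2.14 and 2.50 RPKM after knockdown. The knockdown libraries lay above wild type (log2 change 0.42, SE 0.13, limma adjusted p = 0.0396). The call ended without wild-type replicate 2 (0.30) or knockdown replicate 2 (0.35), under quantile and cyclic loess normalization, without the filter and with the replicate block. FDFT1, squalene synthase, stood at 20.8 and 21.4 RPKM in wild type, against 26.4 and 25.8 RPKM after knockdown. It missed the threshold without overlap of the groups (log2 change 0.29, SE 0.097, limma adjusted p = 0.0559) and passed under cyclic loess normalization (limma adjusted p = 0.0338).

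In 3 of 9 tested sterol enzymes both knockdown libraries were below both wild-type libraries, and none of these passed. Over all tested genes it was 27.3%, so the count was near that share. In 4 of the 9 both were above, against 34.3% of all tested genes. SQLE, squalene epoxidase, stood at 13.7 and 12.4 RPKM in wild type, against 11.5 and 11.8 RPKM after knockdown (log2 change -0.15, SE 0.11, limma adjusted p = 0.351). NSDHL, which acts after MSMO1, stood at 4.88 and 4.83 RPKM in wild type, against 4.11 and 4.23 RPKM after knockdown (log2 change -0.18, SE 0.11, limma adjusted p = 0.271). EBP, a sterol isomerase, stood at 23.4 and 23.96 RPKM in wild type, against 21.5 and 22.6 RPKM after knockdown (log2 change -0.096, SE 0.098, limma adjusted p = 0.523).

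These differences were small beside those of SCD and FADS2. LSS, which closes the sterol rings, HSD17B7 and DHCR7, the last reductase of a route to cholesterol, had log2 changes of 0.13, -0.014 and 0.14 (limma adjusted p = 0.487, 0.951 and 0.383). With 1 library left out LSS ranged from 0.042 to 0.21 and DHCR7 from 0.069 to 0.22. HSD17B7 has 2 named pseudogenes that may share its reads. SC5D, a sterol desaturase, stood at 0.873 and 0.569 RPKM in wild type, against 0.882 and 0.765 RPKM after knockdown, under the filter.

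In the mevalonate pathway 0 of 6 genes passed in limma, and 0 had an unadjusted p under 0.05. HMGCS1, which makes HMG-CoA, stood at 12.4 and 10.1 RPKM in wild type, against 9.84 and 11.5 RPKM after knockdown. Its groups overlapped, and the 95% interval of the log2 change was -0.36 to 0.22. FDPS, which makes farnesyl diphosphate and has 8 named pseudogenes, stood at 70.7 and 71.2 RPKM in wild type, against 77.5 and 71.2 RPKM after knockdown, with an interval of -0.15 to 0.28.

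IDI1, isopentenyl diphosphate isomerase, was the gene of this pathway whose groups did not overlap, at 6.01 and 5.73 RPKM in wild type, against 7.12 and 6.60 RPKM after knockdown (log2 change 0.19, SE 0.11, limma adjusted p = 0.238). The kinases MVK and PMVK and the decarboxylase MVD had log2 changes of 0.036, 0.051 and 0.17 (limma adjusted p = 0.862, 0.806 and 0.418). The signs of MVK and PMVK turned under quantile and cyclic loess normalization.

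**Figure D2:**
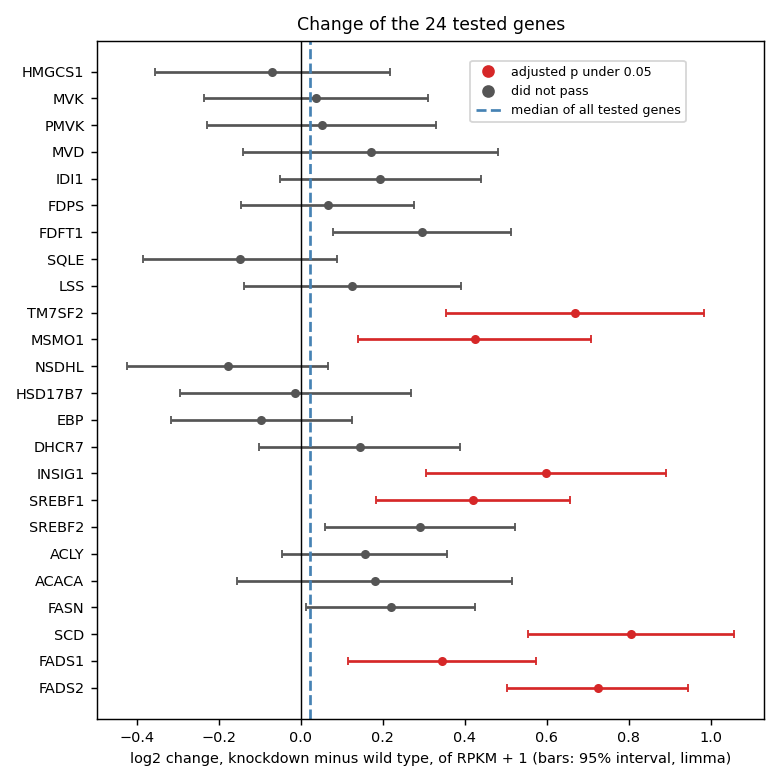
Log2 change of RPKM + 1, knockdown minus wild type, for the 24 tested genes, with the 95% interval from limma as bars, red where the adjusted p was under 0.05. SCD and FADS2 lie farthest right, at 0.81 and 0.72, and the dashed line is the median of all tested genes, 0.023.

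Over all 27 genes, the knockdown libraries were both above the wild-type libraries in 15 and both below in 3, and the groups overlapped in 9. Of the 24 tested it was 13 above and 3 below, against 34.3% and 27.3% of all tested genes. The split of calls over all genes moved with scaling, from 1555 higher and 716 lower to 1140 and 1031 under quantile normalization. Under that scaling 6 members were higher (25%) and 0 lower, against 11.2% of all tested genes higher.

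Genes around lipid synthesis were read from 11 further lists, some of which share genes. Their counts stand beside those of all tested genes, of which 15.3% were called higher and 7.03% lower, 22.3% in either direction. At an unadjusted p under 0.05 in limma, 22% were higher and 13.6% lower. In sterol uptake, storage and efflux 8 of 18 tested genes rose and 1 fell (50% called), with a median log2 change of 0.26. APOE, the apolipoprotein of secreted lipid particles, stood at 6.84 and 7.22 RPKM in wild type, against 24.3 and 24.2 RPKM after knockdown (log2 change 1.65, SE 0.10, limma adjusted p = 8.06e-06). NPC2, which carries cholesterol inside lysosomes, stood at 23.8 and 25.2 RPKM in wild type, against 59.8 and 61.3 RPKM after knockdown (log2 change 1.27, SE 0.095, limma adjusted p = 2.3e-05). Each was far higher in both knockdown libraries than in either wild-type library.

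NPC1, its partner in the lysosomal membrane, stood at 7.92 and 6.53 RPKM in wild type, against 15.03 and 16.3 RPKM after knockdown (log2 change 1.02, SE 0.12, limma adjusted p = 0.000312). ABCA1, which exports cholesterol from the cell, stood at 0.566 and 0.438 RPKM in wild type, against 2.10 and 2.92 RPKM after knockdown (log2 change 1.22, SE 0.14, limma adjusted p = 0.000234). APOE, NPC2, NPC1 and ABCA1 passed in all 11 alternatives. LRP8, a lipoprotein receptor, is named because it was the gene of this list that fell. It went from 10.5 ± 0.00974 to 8.10 ± 0.0755 RPKM (SD, n = 2 each). Its call ended without wild-type replicate 1 (-0.34), wild-type replicate 2 (-0.34), knockdown replicate 1 (-0.35) or knockdown replicate 2 (-0.33). It ended also without the filter and with the replicate block.

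Among LXR and RXR receptors and their targets 3 of 7 tested genes (42.9%) rose and 0 fell in limma. At an unadjusted p under 0.05, 0 were lower. The genes that rose were ABCA1, LPCAT3 and MLXIPL. LPCAT3, which puts polyunsaturated chains into phospholipids, stood at 9.62 and 9.33 RPKM in wild type, against 17.8 and 16.2 RPKM after knockdown (log2 change 0.78, SE 0.11, limma adjusted p = 0.000746) and passed in all 11 alternatives. MLXIPL, the carbohydrate-responsive factor ChREBP, stood at 0.559 and 0.612 RPKM in wild type, against 1.23 and 0.917 RPKM after knockdown and passed in 4 of 10 alternative settings. Its log2 change of 0.38 was 0.092 under quantile and 0.19 under cyclic loess normalization (limma adjusted p = 0.675 and 0.304). Its call ended also without wild-type replicate 1 (0.36) or wild-type replicate 2 (0.41), and without knockdown replicate 1 it was under the filter.

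Of other fatty acid genes 3 of 20 rose and 1 fell (20% called, against 22.3% of all tested genes). ACSL4, which activates arachidonic acid, stood at 3.52 and 2.72 RPKM in wild type, against 9.08 and 10.5 RPKM after knockdown (log2 change 1.39, SE 0.13, limma adjusted p = 8.76e-05) and passed in all 11 alternatives. FADS3, a relative of FADS1 and FADS2, went from 9.69 ± 1.13 to 14.8 ± 1.59 RPKM (SD, n = 2 each). Its call ended without knockdown replicate 1 (0.46) and without the filter. The elongase gene ELOVL5 went from 13.3 ± 2.30 to 18.01 ± 0.0787 RPKM. Its call ended without wild-type replicate 2 (0.26), knockdown replicate 1 (0.42) or knockdown replicate 2 (0.42). It ended also without the filter and with the replicate block. MCAT, of mitochondrial fatty acid synthesis, went from 3.72 ± 0.496 to 2.20 ± 0.137 RPKM. Its call ended without wild-type replicate 2 (-0.45) and without the filter.

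Of the SREBP processing machinery 0 of 8 tested genes rose and 1 (12.5%) fell in limma. At an unadjusted p under 0.05, 1 was higher. The gene that fell was AUP1, a protein of the endoplasmic reticulum and lipid droplets, at 149 and 165 RPKM in wild type, against 120 and 111 RPKM after knockdown (log2 change -0.44, SE 0.096, limma adjusted p = 0.0100), whose call ended without knockdown replicate 2 (-0.39). Of 4 other SREBP2 targets 0 rose and 0 fell in limma, with 1 higher and 1 lower at an unadjusted p under 0.05.

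Protein prenylation and isoprenoid use, which draw on mevalonate products, had 3 of 13 tested genes (23.1%) lower and 0 higher in limma. At an unadjusted p under 0.05, 0 were higher. PDSS1, which makes the side chain of coenzyme Q, stood at 16.7 and 13.9 RPKM in wild type, against 9.29 and 9.09 RPKM after knockdown (log2 change -0.67, SE 0.12, limma adjusted p = 0.00304) and passed in all 11 alternatives. RCE1 and ZMPSTE24, proteases that trim prenylated proteins, had log2 changes of -0.50 and -0.45. The call of RCE1 ended without knockdown replicate 2 (-0.44). That of ZMPSTE24 ended without wild-type replicate 1 (-0.33), knockdown replicate 1 (-0.42) or knockdown replicate 2 (-0.49), and also without the filter and with the replicate block.

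In lipid droplets and lipolysis 2 of 7 tested genes (28.6%) rose and 0 fell in limma. At an unadjusted p under 0.05, 0 were lower. MGLL, monoacylglycerol lipase, stood at 2.49 and 2.48 RPKM in wild type, against 6.73 and 6.70 RPKM after knockdown (log2 change 1.15, SE 0.11, limma adjusted p = 8.83e-05), and PLIN3, a droplet coat protein, went from 25.9 ± 2.55 to 38.4 ± 2.86 RPKM (SD, n = 2 each). In fatty acid oxidation 2 of 22 (9.09%) rose and 0 fell, against 15.3% and 7.03% of all tested genes. At an unadjusted p under 0.05 in limma, 8 were higher and 2 lower, against 22% and 13.6%. The acyl-CoA dehydrogenase genes ACADS and ACADVL had log2 changes of 0.60 and 0.33. The call of ACADVL ended without wild-type replicate 1 (0.27), knockdown replicate 1 (0.27) or knockdown replicate 2 (0.38). It ended also with TMM-like factors, with the replicate block, without the trend and without the filter.

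In glycerolipid and phospholipid synthesis 1 of 17 tested genes rose, LPCAT3, and 1 fell, CHPT1, a choline phosphotransferase. Together 11.8% were called, against 22.3% of all tested genes. CHPT1 went from 20.4 ± 0.304 to 15.9 ± 0.118 RPKM (SD, n = 2 each). Its call ended without wild-type replicate 1 (-0.36), wild-type replicate 2 (-0.33), knockdown replicate 1 (-0.35) or knockdown replicate 2 (-0.34). It ended also with the replicate block. Among AMPK and insulin regulators 1 of 13 rose, the kinase AKT1 (log2 change 0.40), and 1 fell, the receptor FGFR4 (log2 change -0.57). The share called was 15.4%, also under that of all tested genes. The call of AKT1 ended without wild-type replicate 1 (0.34) or knockdown replicate 1 (0.36), and also with the replicate block. FGFR4 passed in all 11 alternatives.

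**Figure D3:**
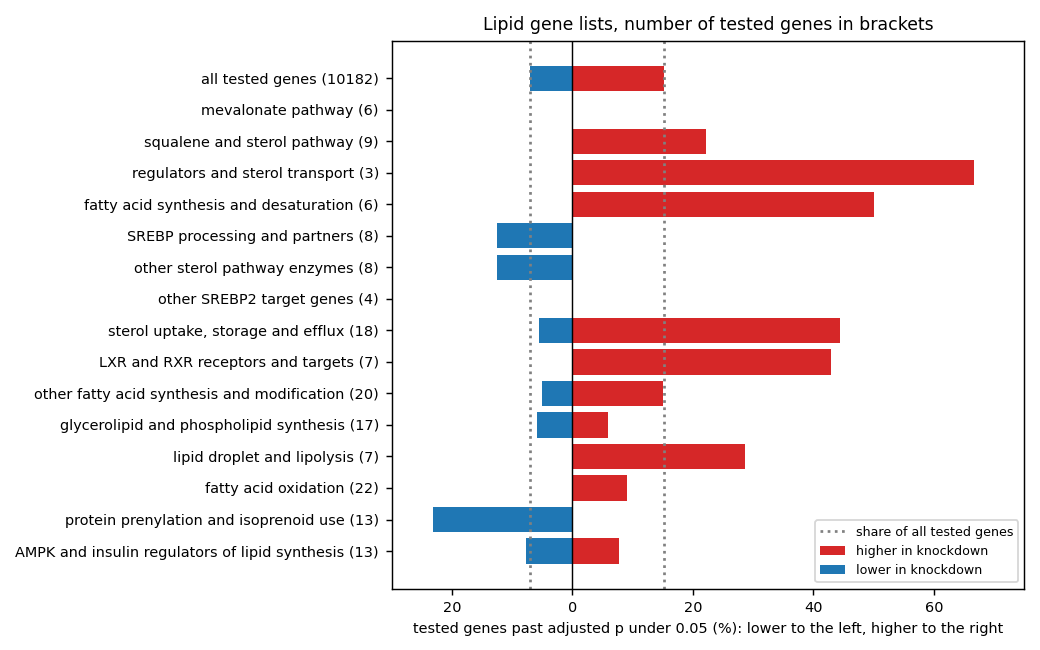
Share of tested genes called higher (red, right) or lower (blue, left) after knockdown at a limma adjusted p under 0.05, for all tested genes, the 4 role groups of the members and 11 further lists, with the number tested in brackets. Dotted lines mark 15.3% and 7.03%, the shares of all tested genes, and 8 of 18 genes of sterol uptake, storage and efflux were higher.

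PSI gives how often an examined junction is used, as a share of the reads over it and the junctions it competes with. The table lists events whose spread over the libraries was at least 0.15, and it held 8 events of SREBF1, ACACA, STARD4, INSIG1 and FADS2. That is 18.5% of the 27 genes, against 18.6% of the genes tested for expression. In limma on PSI 0 of the 8 events passed (adjusted p under 0.05 and a difference of at least 10 points), against 0.107% of 3744 events. At an unadjusted p under 0.05 with that difference it was 2 of 8, against 18.4%. The groups did not overlap in 7 of 8, against 54.2%. On 3744 simulated events, with 67, 67 and 66 upward changes of 0.2, 0.4 and 0.6, this test recovered 0%. The share of changed events in the real data may differ, and there 4 events passed, so the simulation need not hold for them. The values that follow are descriptions. The SREBF1 events compete with each other and 2 ACACA events share an exon, so the 8 are not independent.

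The SREBF1 events concern which upstream exon is joined to the exon at 17820521. The junction that leaves the SREBF1 exon shown above had a PSI of 18.6% and 17% in the wild-type libraries and 36.2% and 43.02% after knockdown. Knockdown libraries had the higher values (21.8 points, SE 8.53, limma adjusted p = 0.267, 95% interval 1.24 to 42.4 points). The competing junction, from the far upstream exon that ends at 17836727, had a PSI of 78.9% and 80.1% in the wild-type libraries and 63.6% and 56.98% after knockdown. Here both knockdown libraries were lower (-19.2 points, SE 8.51, limma adjusted p = 0.274, 95% interval -39.7 to 1.33 points). In each library both values summed to 97.1% to 100%.

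The upstream exon comes first in SREBF1-201 and SREBF1-202 and holds their start codon, that of SREBP-1a. The downstream exon follows it in SREBF1-202, while SREBF1-206 starts in the downstream exon, 13384 bases from the start of SREBF1-201, with the start codon of SREBP-1c. A junction that leaves this exon does not tell which of these models it came from, and the authors' deposited table names the event a cassette exon. With 1 library left out the downstream junction differed by 18.4 to 25.2 points.

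Both junctions of the 24-base ACACA exon had a higher PSI in knockdown libraries. The junction into the exon had a PSI of 65.2% and 65.1% in the wild-type libraries and 88.9% and 86.03% after knockdown. The junction out of it had a PSI of 70.1% and 69.1% in the wild-type libraries and 90.4% and 88.6% after knockdown. The differences were 22.3 points (SE 8.34, limma adjusted p = 0.267) and 19.8 points (SE 8.32, adjusted p = 0.269). Their 95% intervals were 2.20 to 42.4 points and -0.229 to 39.9 points, and with 1 library left out the values were 20.9 to 23.7 and 18.9 to 20.7 points. The exon length equals 8 codons, and it is in 5 annotated transcripts, of which 4 are coding.

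A further ACACA event lies nearer the start of the gene. The junction from 37330173 to the exon at 37284838 to 37284970 competes with one to 37328986, where the last exon of the short coding transcript ACACA-232 begins. The former had a PSI of 40.4% and 39.05% in the wild-type libraries and 60% and 50% after knockdown. Both knockdown libraries were higher, and they lay 10 points from each other (15.3 points, SE 8.77, limma adjusted p = 0.319). The authors' deposited table calls this an alternative C-terminus.

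The STARD4 event concerns the exon at chromosome 5, 111507329 to 111507442. This exon has 114 bases and holds an annotated start codon. The junction into it had a PSI of 77.3% and 75% in the wild-type libraries and 56.8% and 62.2% after knockdown. Neither knockdown library reached wild type (-16.6 points, SE 8.46, limma adjusted p = 0.291). STARD4 was under the expression filter, with 47 to 174 whole units per library over the gene. Its PSI may therefore rest on few reads.

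In INSIG1 and FADS2 the wild-type libraries differed from each other. The junction into an INSIG1 exon of 71 bases (chromosome 7, 155303825 to 155303895) had a PSI of 26.8% and 46.2% in the wild-type libraries and 26.1% and 25.8% after knockdown. The difference of -10.5 points was -0.77 points without wild-type replicate 2. The junction into a FADS2 exon of 106 bases (chromosome 11, 61826032 to 61826137) had a PSI of 25.9% and 0% in the wild-type libraries and 16.7% and 6.06% after knockdown, with overlapping groups. Its difference of -1.57 points was 11.4 points without wild-type replicate 1 and 3.74 points without knockdown replicate 2.

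**Figure D4:**
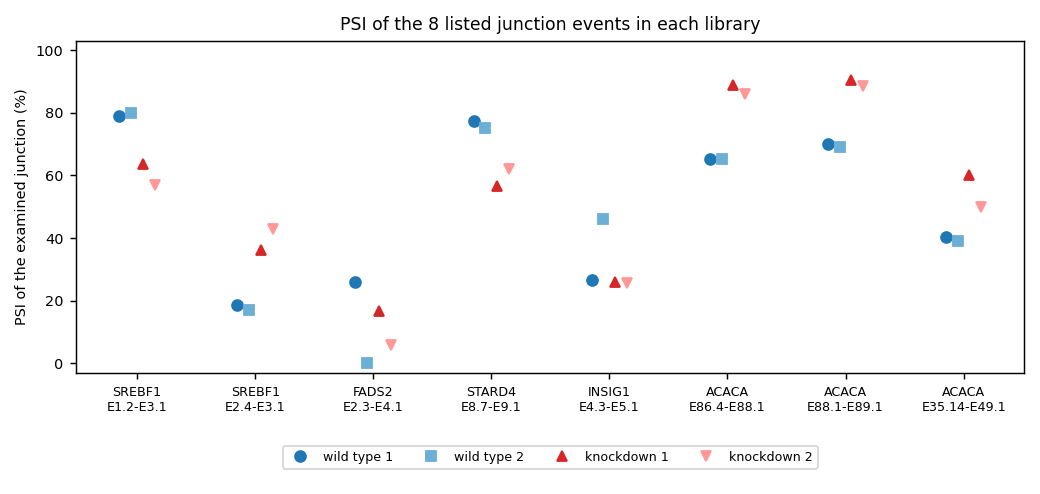
PSI (percent) of the examined junction of 8 events in the 2 wild-type (blue) and 2 knockdown (red) libraries, named by gene and the exon numbers of the authors' table. Both junctions of the ACACA 24-base exon and the downstream SREBF1 junction are higher after knockdown, by 22.3, 19.8 and 21.8 points, and the wild-type libraries lie apart in INSIG1 and FADS2.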

How the data were processed

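Polyadenylated RNA of A549 cells was sequenced in 4 libraries as paired reads of 100 bases from a stranded kit, per the labels' protocols. STAR 2.6.1 and hg38 appear in the submitters' processing notes. No source used here names the counter, annotation, splicing caller or strand setting. The authors deposited gene values in the form of RPKM, a unit inferred from the values: in 10096 of 10182 tested genes (99.2%) they were whole multiples of a step (tolerance 0.0001), and these multiples are the units quoted. Coding genes with 1 exon were seldom listed (1.81%, against 74.7% of the others), so the values may rest on junction reads. The authors deposited PSI as a fraction, given here in percent, and its depth is unknown.

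Groups came from sample titles. limma 3.58.1 (R 4.3.3, two-sided, moderated variances with a trend for expression) was run on log2(RPKM + 1), which understates changes of low genes, and on the PSI of 3744 events with all values. Symbols were matched for 16921 gene IDs by name table and for 85 by GENCODE v29. Alternatives were quantile, cyclic loess and TMM-like scaling, a pseudocount of 0.1, no filter, no trend, a replicate block and each library left out, and for PSI an arcsine scale and missing values kept. Where 1 library is left out, the lone library of its group is assumed to vary like the other group. Named were RBM10, all members and their events, and up to 4 genes past the test with the largest change in each further list. Members and lists were chosen with earlier results of these data known, and no list was tested as a set. The result of 1 further list, other sterol pathway enzymes, is not reported in the text. On simulated data over 9938 genes, limma recovered 71.6% of log2 changes of 0.585 and 100% of those of 1 and 2, with 13 false calls among 9740. An annotated gene overlaps 15 of the 27 members on the other strand, and without strand their reads cannot be told apart.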

Additional observations from a re-analysis of the deposited data

How the results depend on the processing

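SCD and FADS2 passed in all 11 alternatives for expression, and RBM10 stayed lower in each, at -1.77 to -1.57 with 1 library left out. Members called higher numbered 7 (29.2%), against 2 without the filter (7.41%) and 4 with the replicate block (16.7%). In each of these 0 were lower. Of all tested genes, 15.3%, 7.18% and 12.6% were called higher in the same settings, so without the filter the members were close to that share. The median log2 change of the members, 0.17, was 0.13 with quantile, 0.17 with cyclic loess and 0.14 with TMM-like scaling. It was 0.20 with a pseudocount of 0.1, 0.17 without the filter, and 0.19 to 0.21 with 1 library left out. Genes called over the table numbered 2271, against 1546 without the filter, 1718 with the block and 1707 to 1998 with 1 library left out. MVK turned to -0.080 with quantile and -0.018 with cyclic loess scaling and PMVK to -0.074 and -0.012, and the cause was not tested. With 1 library left out MVK ranged over -0.072 to 0.14, PMVK over -0.080 to 0.18, HMGCS1 over -0.21 to 0.065, MVD over -0.017 to 0.36, HSD17B7 over -0.11 to 0.084, ACACA over -0.024 to 0.38 and the FADS2 junction over -14.5 to 11.4 points. PSI events called numbered 4, against 62 with the block and 0 with any 1 library left out, where limma had fewer samples. The median absolute PSI difference of the 8 events, 17.9 points, was 16.4 to 19.96 with 1 library left out. For single genes, lists and events, 786 alternative values stayed as in the main setting. For genes and events that meant the same direction and side of the threshold, and for list counts a change within 1.5 times. Of the others, 88 fell short of the threshold, 2 newly passed, 15 changed sign and 55 list counts moved by over 1.5 times, or to or from 0. Replicate numbers have no shared origin in the labels, and same-numbered libraries deviated with a correlation of -0.44 across genes, so the block has no basis in the design. A crossed pairing, chosen after seeing the data, called 4196 genes in either direction, and 10 members higher and 0 lower. The share of all genes called higher under it was not computed.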
